A study of Homo sapiens with 6 samples.

Results

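The transcripts described here are those of OLR1, which encodes the receptor for oxidised low-density lipoprotein, and of 8 further genes. These 8, SCARB1, SCARA3, VLDLR, LRP8, LRP1, SORL1, LRP5 and LRP6, belong to the scavenger receptors or to the lipoprotein receptor family. With OLR1 they are 9 of the 60483 genes listed in the deposited tables. All 9 passed the filter that left 14900 genes for testing. The genes were chosen by name as scavenger receptors and members of the low-density lipoprotein (LDL) receptor family, selected on the difference between the 2 groups of libraries, in which OLR1 was already known to differ strongly. Their differences between these groups are therefore given as a description, with standard errors and with no p-value.

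RNA was sequenced from DLD-1 cells, a human colorectal cancer line, grown in medium with serum. One group was transfected with siRNA against AHR (3 libraries) and the other with a control siRNA (3 libraries), to find genes regulated by AHR, the ligand-activated aryl hydrocarbon receptor. No source used here gives the siRNA sequences or the time after transfection, and the labels name no second siRNA against AHR and no rescue, so loss of AHR and other effects of this siRNA cannot be told apart. No label says that replicates are separate cultures. A p-value printed for a related gene therefore sets the difference between the groups against the spread of libraries within them, and that spread may be technical. The lists of related genes were also chosen with earlier results of these data known, and many genes in them were named for their small p. Their p-values therefore describe these data and are no separate support.

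The LDL receptor family consists of membrane proteins that bind lipoproteins, proteases and other ligands through cysteine-rich repeats and carry them into the cell by endocytosis. Some members have roles beyond lipid uptake. LRP5 and LRP6 are co-receptors for Wnt ligands, while VLDLR and LRP8 also transmit the reelin signal. Scavenger receptors are an unrelated collection of proteins that bind modified lipoproteins and other polyanions, and OLR1, a C-type lectin-like protein also called LOX-1, is best known from endothelium and macrophages.

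The libraries held 11567736 to 12937058 counts in the AHR siRNA group and 13585529 to 15037145 in the control siRNA group. Levels are given in CPM, counts brought to a common library size with TMM factors, and 10 counts were worth 0.690 to 0.828 CPM. The targeted AHR transcript stood at 95.8, 87.4 and 94.95 CPM in the AHR siRNA libraries and at 117, 144 and 132 CPM in the control siRNA libraries, so 70.8% of the control level was left (log2 fold change -0.50, SE 0.08, edgeR adjusted p = 1.98e-05). The 10 markers of colon epithelium summed to 8032 to 8354 CPM in AHR siRNA libraries and 11631 to 13154 CPM in control siRNA libraries, with 5 of the 9 tested markers lower and 1, VIL1, higher. The 9 endothelial markers summed to 7.21 to 8.15 CPM and 6.46 to 8.33 CPM in the AHR siRNA and control siRNA libraries, and the 10 markers of macrophages and other leukocytes to 3.81 to 4.33 CPM and 4.54 to 7.73 CPM. KDR, EMCN and MS4A1 had no count in any library, and PTPRC had at most 2. VWF was higher in AHR siRNA libraries (log2 fold change 0.85, edgeR adjusted p = 0.0122) and CD14 lower (-0.75, edgeR adjusted p = 0.0126). The other tested markers of these 2 lists, CLDN5, ERG and CSF1R, did not pass an edgeR adjusted p under 0.05. CLDN5 had 47 to 65 counts per AHR siRNA library and 52 to 64 per control siRNA library. The part of the lower epithelial markers in the results on the receptor genes was not tested. In bulk libraries, fewer cells with a transcript and less of it per cell cannot be told apart.

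Differences between these groups were common, and 60.1% of all tested genes passed the edgeR threshold (adjusted p under 0.05). Genes called higher in AHR siRNA libraries made up 30.0% and genes called lower 30.1%. These shares are 4474 higher and 4479 lower genes, and scaling by library totals gave 5885 higher and 3205 lower. The groups did not overlap for 63.7% of tested genes. Of the 9 receptor genes, 2 were called higher, 6 were called lower and 1 was not called, and the groups did not overlap for 6. With libraries scaled by their totals alone, which moved the median of all tested genes by 0.15 on the log2 scale, 3 were called lower and 2 higher. The median log2 fold change of the 9 genes was -0.30, beside 0.01 over all tested genes. The calls of SORL1, LRP8 and LRP5 were lost in 6, 3 and 1 of 14 alternative settings. These counts follow from how the genes were chosen and nothing is read from them.

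OLR1 (ENSG00000173391.7) lies on the minus strand of chromosome 12, at 10158301 to 10172138 in GRCh38 by GENCODE 29. Its level was 98.3, 97.7 and 105 CPM in the 3 AHR siRNA libraries, against 540.1, 525 and 513 CPM in the 3 control siRNA libraries. The libraries of each group lay close together and far from those of the other group. The means were 100.4 ± 4.2 CPM in AHR siRNA cells and 526 ± 13 CPM in control siRNA cells (SD, n = 3 each), a 5.24-fold lower level (log2 fold change -2.39, SE 0.07). Only 27 of the 14900 tested genes had a larger fall, and 102 (0.685%) a larger change in either direction. The values rest on 1187 to 1433 counts per AHR siRNA library and 6673 to 7603 per control siRNA library, and the log2 fold change stayed within -2.42 to -2.24 over 14 alternative settings.

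SCARA3 (ENSG00000168077.12, chromosome 8), a scavenger receptor gene known for induction by oxidative stress, differed in the same direction as OLR1. It stood at 14.9, 14.8 and 16.4 CPM in AHR siRNA libraries and at 40.7, 42.2 and 43.5 CPM in control siRNA libraries, so all 3 AHR siRNA libraries lay below all 3 control siRNA libraries. The means of 15.4 ± 0.93 and 42.1 ± 1.4 CPM in AHR siRNA and control siRNA cells (SD, n = 3 each) give a level of 36.6% of control (log2 fold change -1.45, SE 0.09), and 244 tested genes had a larger fall. The values rest on 180 to 224 and 542 to 612 counts per library in AHR siRNA and control siRNA cells.

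SCARB1 (ENSG00000073060.14, on chromosome 12 at 124776856 to 124882668) encodes the receptor that takes up cholesteryl esters from high-density lipoprotein. Its level was 100.2, 108 and 108 CPM in AHR siRNA replicates 1 to 3, against 149, 145 and 139 CPM in control siRNA replicates 1 to 3. The groups did not overlap, and the difference was far smaller than those of OLR1 and SCARA3. The means were 105 ± 4.3 CPM in AHR siRNA cells and 144 ± 5.0 CPM in control siRNA cells (SD, n = 3 each), 73.0% of control (log2 fold change -0.45, SE 0.07). A larger change was seen in 43.9% of tested genes.

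**Figure D1:**
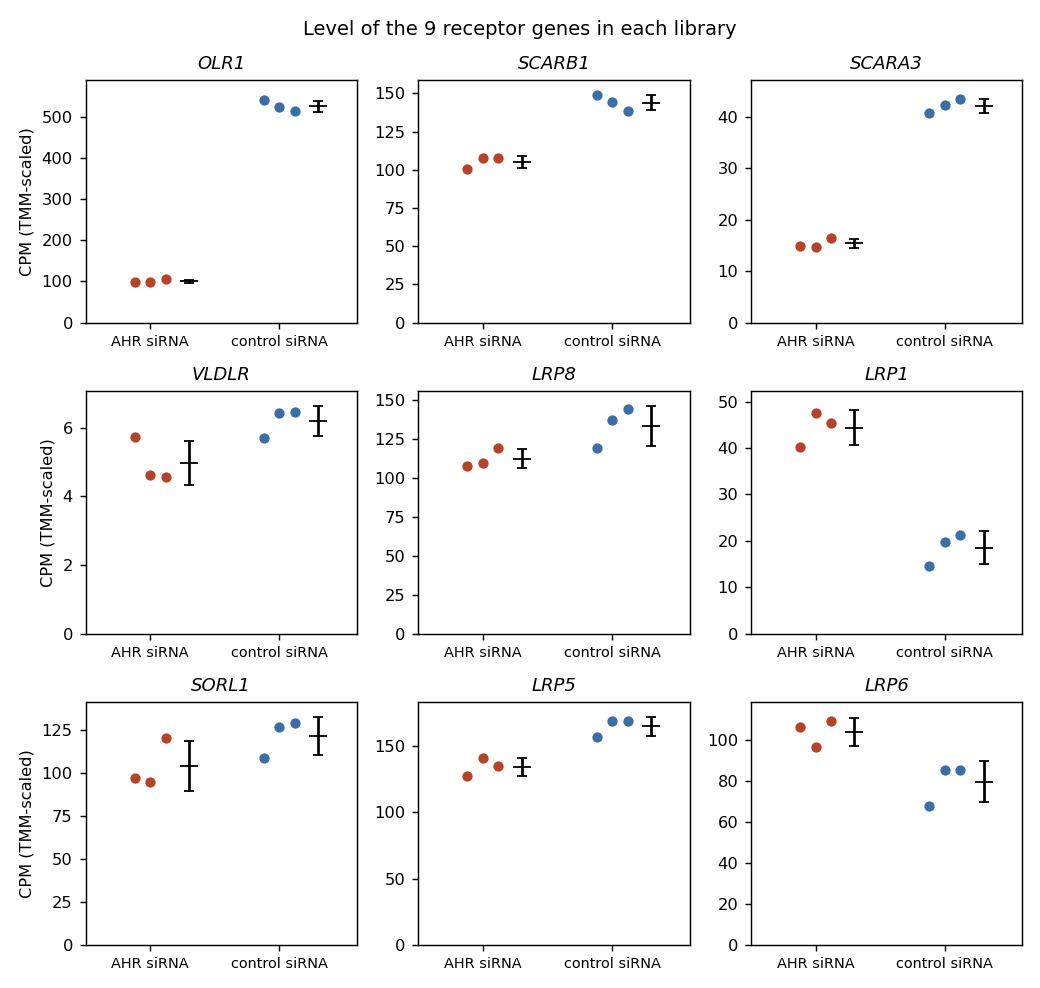
Level of each of the 9 receptor genes in CPM (vertical axis, starting at 0) in the 3 AHR siRNA and the 3 control siRNA libraries. Points are libraries, and the cross beside them is the mean with its SD. OLR1 lies near 100.4 CPM in AHR siRNA cells and near 526 CPM in control siRNA cells, while LRP1 is higher in AHR siRNA cells and VLDLR, LRP8 and SORL1 overlap.

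Among the LDL receptor family genes of the 9, LRP1 had the largest difference, and it was higher in AHR siRNA cells. Of the other family genes described below, LDLRAD1 was higher by nearly as much (log2 fold change 1.25, SE 0.18) and LRP11 was lower (-0.99, SE 0.08). The promoters bear on the design because AHR binds DNA at the core word GCGTG. RefSeq promoter windows (GRCh38.p14, 250 bases before to 50 after the start site) were matched by symbol for 5 of the 9 genes, VLDLR, LRP8, LRP1, SORL1 and LRP5, and were searched on both strands. The core word was found in 2 of the 5, and in 36.5% of all 35116 windows of this length. The windows of VLDLR and LRP8, the 2 that hold it, are printed with the matches in capitals, in which CACGC is GCGTG on the other strand. That of LRP1, the gene with the largest rise of the 9, is printed as well.
VLDLR, chr9:2621537-2621836, plus strand: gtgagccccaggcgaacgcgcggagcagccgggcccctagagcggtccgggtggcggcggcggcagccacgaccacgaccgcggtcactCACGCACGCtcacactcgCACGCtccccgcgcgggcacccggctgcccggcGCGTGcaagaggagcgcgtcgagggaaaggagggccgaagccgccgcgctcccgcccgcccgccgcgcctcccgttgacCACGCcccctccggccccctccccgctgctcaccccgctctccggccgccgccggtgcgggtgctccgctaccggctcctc
LRP8, chr1:53328021-53328320, minus strand: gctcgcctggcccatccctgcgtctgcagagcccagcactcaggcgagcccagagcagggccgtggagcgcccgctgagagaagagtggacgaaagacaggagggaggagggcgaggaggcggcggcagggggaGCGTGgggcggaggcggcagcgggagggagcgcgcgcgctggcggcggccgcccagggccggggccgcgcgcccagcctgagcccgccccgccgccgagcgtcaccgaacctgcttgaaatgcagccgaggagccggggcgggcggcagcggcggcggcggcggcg
LRP1, chr12:57128233-57128532, plus strand: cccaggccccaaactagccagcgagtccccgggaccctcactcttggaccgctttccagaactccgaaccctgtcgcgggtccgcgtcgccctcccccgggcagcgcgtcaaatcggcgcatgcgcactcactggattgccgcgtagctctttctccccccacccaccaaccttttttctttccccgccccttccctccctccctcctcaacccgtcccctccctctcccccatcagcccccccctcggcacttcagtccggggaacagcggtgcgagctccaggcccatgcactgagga

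The VLDLR window held the word 5 times, with 2 of the matches sharing 1 base, a number reached or passed by 0.652% of all windows. The LRP8 window held it once, starting 116 bases before the start site. The windows of LRP1, SORL1 and LRP5 held none, and the longer word TNGCGTG was in none of the 5 and in 5.51% of all windows. No window was matched for OLR1, SCARB1, SCARA3 or LRP6, so OLR1 and SCARA3, with the largest differences among these receptor genes, were not searched. A match is only a match of letters, and these windows show neither binding by AHR nor its absence.

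LRP1 (ENSG00000123384.12, on chromosome 12 at 57128493 to 57213351) encodes a very large endocytic receptor for apolipoprotein E, proteases and protease-inhibitor complexes. Its level was 40.2, 47.5 and 45.4 CPM in the AHR siRNA libraries, against 14.6, 19.7 and 21.3 CPM in the control siRNA libraries. Every AHR siRNA library lay above every control siRNA library, and control siRNA replicate 1 was the lowest of its group. The means of 44.4 ± 3.8 CPM in AHR siRNA cells and 18.6 ± 3.5 CPM in control siRNA cells (SD, n = 3 each) give a 2.39-fold higher level (log2 fold change 1.26, SE 0.11), and 669 tested genes had a larger rise. The log2 fold change lay between 1.11 and 1.40 over 14 alternative settings. In GENCODE 29 the exons of LRP1 share 59 bases with those of STAT6 on the opposite strand, and STAT6 was also higher, at 399.9 ± 14 CPM in AHR siRNA cells and 215 ± 16 CPM in control siRNA cells (SD, n = 3 each, edgeR adjusted p = 2.28e-09). No source used here says whether reads were counted by strand, and the part of STAT6 reads in the LRP1 values was not tested.

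VLDLR (ENSG00000147852.14), whose product binds triglyceride-rich lipoproteins and reelin, was the least abundant of the 9 genes. It stood at 5.72, 4.63 and 4.55 CPM in AHR siRNA libraries and at 5.70, 6.42 and 6.46 CPM in control siRNA libraries. AHR siRNA replicate 1 lay just above control siRNA replicate 1 and below the other control siRNA libraries. The means were 4.97 ± 0.65 CPM in AHR siRNA cells and 6.19 ± 0.43 CPM in control siRNA cells (SD, n = 3 each), and the log2 fold change was -0.32 (SE 0.16). With 62 to 69 counts per AHR siRNA library and 76 to 93 per control siRNA library, VLDLR had the largest standard error of the 9 genes.

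LRP8 (ENSG00000157193.13), the apolipoprotein E receptor 2 gene, had 108, 109 and 119 CPM in AHR siRNA libraries and 119, 137 and 144 CPM in control siRNA libraries. The highest AHR siRNA library, replicate 3, reached just above the lowest control siRNA library, replicate 1. The means were 112 ± 6.1 CPM in AHR siRNA cells and 133 ± 13 CPM in control siRNA cells (SD, n = 3 each), with log2 fold change -0.25 (SE 0.08). SORL1 (ENSG00000137642.11, on chromosome 11), which encodes a sorting receptor with a VPS10 domain that keeps the amyloid precursor protein in the Golgi and endosomes, had 97.0, 94.8 and 121 CPM in AHR siRNA libraries and 109, 127 and 129 CPM in control siRNA libraries. AHR siRNA replicate 3 lay above control siRNA replicate 1. Its means were 104 ± 14 and 122 ± 11 CPM in AHR siRNA and control siRNA cells (SD, n = 3 each), with log2 fold change -0.22 (SE 0.09). For both genes the groups overlapped, and larger changes were seen in 65.9% and 69.2% of tested genes.

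The Wnt co-receptor genes LRP5 and LRP6, whose products act together with Frizzled receptors, differed in opposite directions. LRP5 (ENSG00000162337.10, on chromosome 11) had 127, 141 and 135 CPM in AHR siRNA libraries and 157, 169 and 169 CPM in control siRNA libraries, with no overlap. Its means were 134 ± 6.8 CPM in AHR siRNA cells and 165 ± 7.3 CPM in control siRNA cells (SD, n = 3 each), with log2 fold change -0.30 (SE 0.07), which was -0.15 with library totals alone. LRP6 (ENSG00000070018.7, on chromosome 12 at 12116025 to 12267012) had 106, 96.3 and 109 CPM in AHR siRNA libraries and 67.9, 85.4 and 85.5 CPM in control siRNA libraries, again with no overlap. Its means were 104 ± 6.8 CPM in AHR siRNA cells and 79.6 ± 10.1 CPM in control siRNA cells (SD, n = 3 each), with log2 fold change 0.38 (SE 0.09), which ran from 0.27 to 0.53 over the alternatives. Without control siRNA replicate 1, the lowest of the 6 libraries for LRP6, it was 0.27.

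**Figure D2:**
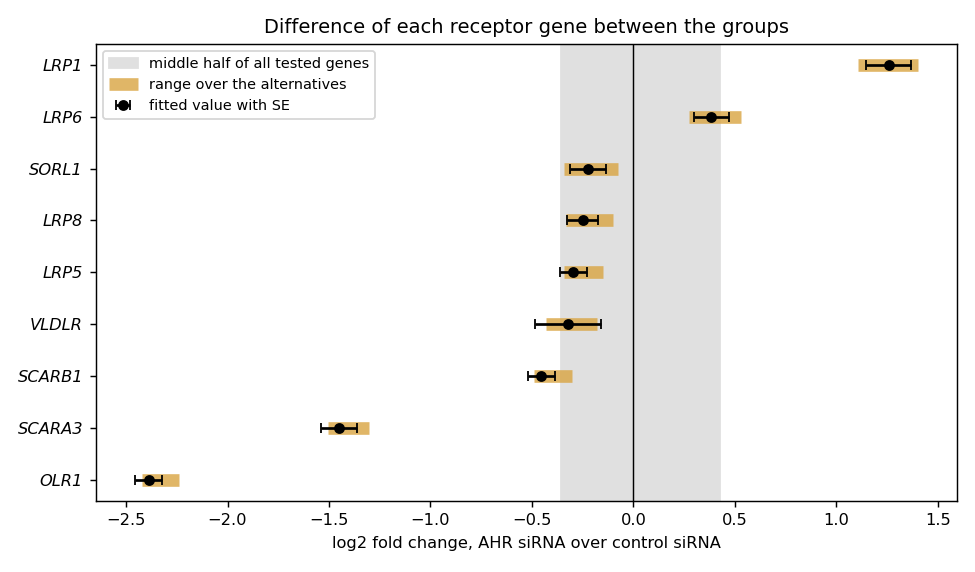
Log2 fold change of each receptor gene, AHR siRNA over control siRNA (horizontal axis), with its standard error (black) and its range over 14 alternative settings (yellow). The grey band spans the quartiles of all tested genes, from -0.36 to 0.43. OLR1 at -2.39, SCARA3 at -1.45 and LRP1 at 1.26 lie far outside the band, SCARB1 lies just outside it at -0.45, and the other 5 genes lie inside it.

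To compare levels between genes, CPM was divided by the length of the longest GENCODE 29 transcript in kilobases. Per kilobase, OLR1 had the highest level of the 9 genes in both groups, at 40.8 ± 1.7 CPM per kb in AHR siRNA cells and 214 ± 5.5 CPM per kb in control siRNA cells (SD, n = 3 each). LRP5 followed at 26.03 ± 1.3 and 32.0 ± 1.4 CPM per kb, SCARB1 at 19.0 ± 0.77 and 26.05 ± 0.91 CPM per kb, and LRP8 at 14.6 ± 0.79 and 17.4 ± 1.7 CPM per kb, each in AHR siRNA and control siRNA cells. These 4 levels did not overlap their neighbours in the order in either group. OLR1 therefore stood 1 place above LRP5 in both groups, but by a much smaller margin in AHR siRNA cells.

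The order below these 4 differed between the groups. In AHR siRNA cells it was LRP6 (10.4 ± 0.67 CPM per kb), SORL1 (9.55 ± 1.3), SCARA3 (4.38 ± 0.26), LRP1 (2.98 ± 0.25) and VLDLR (0.542 ± 0.071), with only LRP6 and SORL1 overlapping. In control siRNA cells it was SCARA3 (12 ± 0.40 CPM per kb), SORL1 (11.2 ± 1.0), LRP6 (7.94 ± 1.0), LRP1 (1.25 ± 0.23) and VLDLR (0.676 ± 0.047), with only SCARA3 and SORL1 overlapping (SD, n = 3 each). LRP1 and VLDLR were the 2 lowest in both groups. With the length of all exons joined, SORL1 and LRP6 changed places in control siRNA cells and no other place in the order changed in either group. By that length LRP8 overlapped LRP6 in AHR siRNA cells, LRP6 overlapped SORL1 in control siRNA cells, and the other neighbours were apart.

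**Figure D3:**
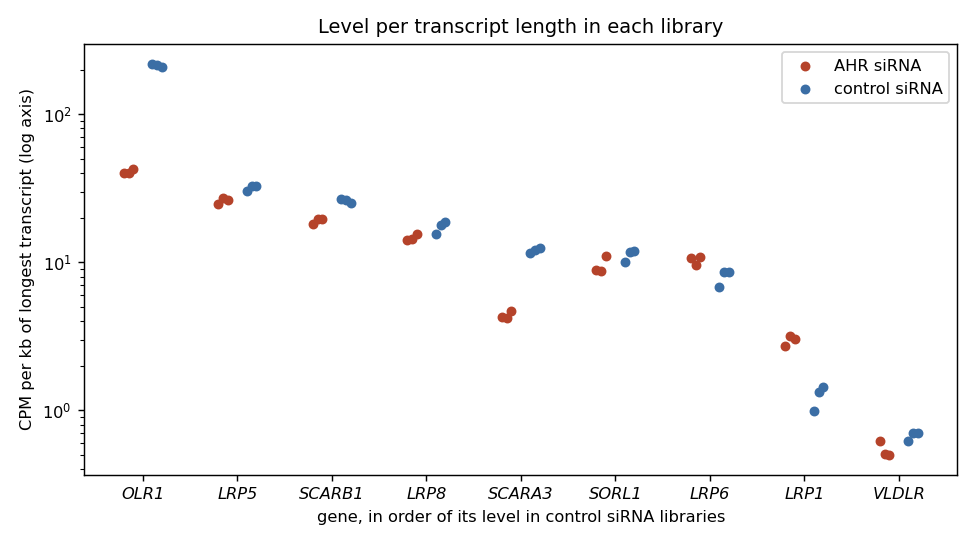
Level in CPM per kb of the longest transcript (vertical log axis) of each receptor gene in the 3 AHR siRNA and 3 control siRNA libraries, with genes ordered by their level in control siRNA cells. Points are libraries. OLR1 averages 40.8 CPM per kb in AHR siRNA cells and 214 in control siRNA cells, and is the highest gene in both groups.

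The genes most like OLR1 over the 6 libraries were sought among 11003 tested genes with a symbol and a mean of at least 5 CPM, by the root mean square difference between profiles of log2(CPM + 0.5) centred on each gene's mean. The 4 closest were PRNP (difference 0.06 on the log2 scale), CD55 (0.12), DSG2 (0.12) and CMPK1 (0.12), which encode the prion protein, a complement regulator, a desmosomal cadherin and a nucleotide kinase. PRNP, the closest, had 24.5 ± 2.2 CPM in AHR siRNA cells and 123 ± 6.0 CPM in control siRNA cells (SD, n = 3 each). With a pseudocount of 2 CPM, 3 of the 5 closest genes stayed among the 5 closest. Since the groups differ strongly, closeness here mostly means a fall of about the same size. SCARA3 was the 138th closest of the candidates, at a difference of 0.48.

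**Figure D4:**
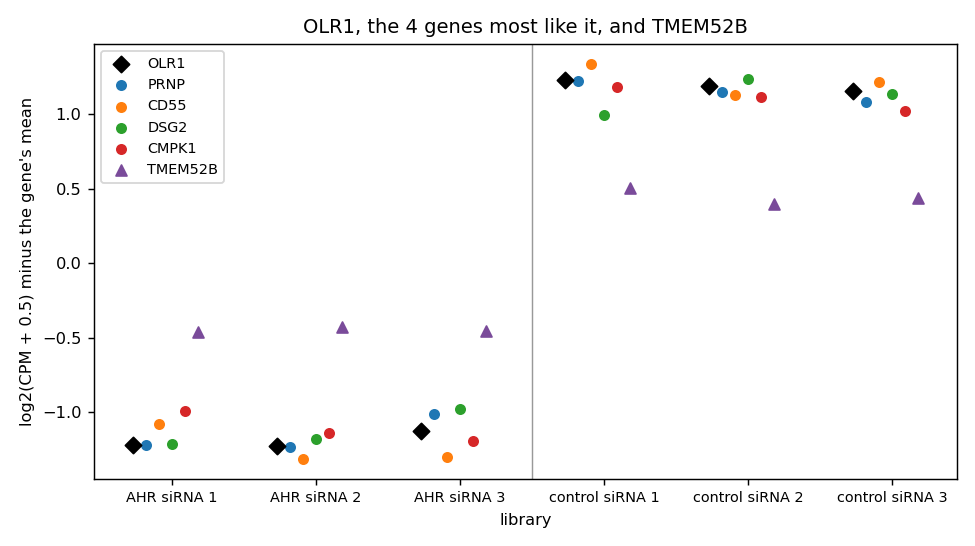
Profile of OLR1, of the 4 genes most like it and of TMEM52B over the 6 libraries, as log2(CPM + 0.5) minus the mean of the gene (vertical axis), with the AHR siRNA libraries left of the line. The OLR1 points lie between -1.23 and -1.12 in AHR siRNA libraries and between 1.16 and 1.23 in control siRNA libraries, and TMEM52B moves the same way by less.

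OLR1 belongs to a cluster of C-type lectin genes on chromosome 12, and its start lies beside that of TMEM52B on the opposite strand. In GENCODE 29 the 2 genes share 1597 bases of their span and no exon base. TMEM52B had 94.6, 96.8 and 94.9 CPM in AHR siRNA libraries and 185, 171 and 177 CPM in control siRNA libraries, with no overlap. It was lower, at 53.7% of control (log2 fold change -0.90, SE 0.07, edgeR adjusted p = 8.62e-10), by less than OLR1. Of 14 listed neighbours, from CLEC2D to KLRD1, 3 were tested, 1 was lower, 1 higher and 1, the autophagy gene GABARAPL1, not called (log2 fold change -0.14, edgeR adjusted p = 0.0690). The higher one, the lectin gene CLEC2D, passed narrowly (log2 fold change 0.35, SE 0.14, edgeR adjusted p = 0.0440) and lost its call when any single library was left out. The other 11 were below the filter, 4 of them with no count in any library, among them the neighbouring lectin genes CLEC1A and CLEC9A. Over all tested genes 30.0% were called higher and 30.1% lower. Nothing is read from the counts called in this list or in those below.

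Of 18 other scavenger receptor genes, 5 were tested, 3 were higher, 1 was lower and 1 was not called, and 13 were below the filter. Their median log2 fold change was 0.26, beside 0.01 over all tested genes. CXCL16, whose membrane-bound product is a chemokine and a receptor for oxidised lipoprotein, was the one that fell, to 59.0% of control (log2 fold change -0.76, SE 0.07, edgeR adjusted p = 3.82e-08). AGER, the receptor for advanced glycation end products, rose to 174% of control (0.80, SE 0.14, edgeR adjusted p = 6.37e-05), and the lysosomal membrane gene SCARB2 to 119% (0.26, SE 0.06, edgeR adjusted p = 0.00158). SCARF2 was low and rose, with 1.48 ± 0.14 CPM in AHR siRNA cells and 0.773 ± 0.40 CPM in control siRNA cells (SD, n = 3 each, edgeR adjusted p = 0.0397). Its edgeR adjusted p was 0.211 with control siRNA replicate 3 left out, and 0.0957 or 0.105 with AHR siRNA replicate 1 or 2 left out. The macrophage receptor genes MSR1 and MARCO and the fatty acid receptor gene CD36 had at most 3 counts in a library.

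Of 12 other LDL receptor family genes, 8 were tested, 2 were higher, 3 lower and 3 not called, with a median log2 fold change of -0.30. With AHR siRNA replicate 3 left out, 1 was higher. LRP11 fell to 50.2% of control (log2 fold change -0.99, SE 0.08, edgeR adjusted p = 1.56e-09) and LRP10 to 69.8% (-0.52, SE 0.07, edgeR adjusted p = 1.79e-06). LDLRAD1 rose to 237%, with 7.27 ± 0.79 CPM in AHR siRNA cells and 3.06 ± 0.50 CPM in control siRNA cells (SD, n = 3 each, edgeR adjusted p = 6.68e-06). LRP2, the large receptor known as megalin, had at most 3 counts in a library, and LRP1B had none.

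Of 15 genes for folding, endocytosis and turnover of these receptors, 14 were tested, 4 were higher, 5 lower and 5 not called, with a median log2 fold change of -0.09. MYLIP, the ubiquitin ligase that sends VLDLR and LRP8 proteins to degradation, rose to 174% of control (log2 fold change 0.80, SE 0.09, edgeR adjusted p = 5.48e-07). MESD, the chaperone that LRP5 and LRP6 need for folding, rose to 146% (0.55, SE 0.09, edgeR adjusted p = 2.19e-05), and GULP1, an adaptor that binds the LRP1 tail, to 141% (0.50, SE 0.09, edgeR adjusted p = 7.92e-05). FURIN, the convertase that cleaves the LRP1 precursor, fell to 70.0% (-0.51, SE 0.07, edgeR adjusted p = 1.81e-06). The number of lower genes in this list was 3 when AHR siRNA replicate 2 was left out, and also 3 by library totals alone.

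Of 18 ligand genes, 13 were tested, 5 were higher, 4 lower and 4 not called, with a median log2 fold change of 0.11. MDK, a growth factor that binds LRP1, rose to 204% of control (log2 fold change 1.03, SE 0.12, edgeR adjusted p = 4.51e-07), SELENOP, the selenium carrier that LRP8 takes up, to 274% (1.46, SE 0.23, edgeR adjusted p = 2.49e-05), and the lipase gene LIPG to 145% (0.53, SE 0.09, edgeR adjusted p = 2.85e-05). PLAT, the plasminogen activator that LRP1 clears, fell to 31.2% (-1.68, SE 0.22, edgeR adjusted p = 2.11e-06). SELENOP and PLAT were low in both groups, with SELENOP at 4.57 ± 0.37 CPM in AHR siRNA cells and 1.65 ± 0.50 CPM in control siRNA cells (SD, n = 3 each). APOE had 6 to 13 counts per AHR siRNA library and 13 to 17 per control siRNA library.

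Of 25 genes of Wnt receptors and their regulators, the partners of LRP5 and LRP6, 15 were tested, 5 were higher, 5 lower and 5 not called, with a median log2 fold change of 0.14. The Frizzled genes differed among themselves. FZD2 rose to 197% of control (log2 fold change 0.98, SE 0.12, edgeR adjusted p = 6.45e-07), while FZD6 fell to 64.0% (-0.64, SE 0.10, edgeR adjusted p = 1.46e-05). LGR5, a receptor for R-spondins, rose to 188% (0.91, SE 0.07, edgeR adjusted p = 4.00e-09) and ROR1, a receptor for WNT5A, to 160.4% (0.68, SE 0.08, edgeR adjusted p = 5.99e-07). The antagonist genes DKK1, DKK2 and DKK4 and the SOST gene had at most 2 counts in a library.

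Of 12 genes for shedding and intramembrane cleavage of these receptors, all 12 were tested, 3 were higher, 3 lower and 6 not called, with a median log2 fold change of 0.13. All 3 higher ones encode subunits of gamma-secretase. NCSTN rose to 179% of control (log2 fold change 0.84, SE 0.07, edgeR adjusted p = 6.17e-09), APH1B to 194% (0.96, SE 0.18, edgeR adjusted p = 0.000139) and PSENEN to 158% (0.66, SE 0.14, edgeR adjusted p = 0.000559). The subunit gene APH1A was lower (-0.24, SE 0.08, edgeR adjusted p = 0.0143), and the catalytic subunit gene PSEN2 was not called (log2 fold change 0.17). The sheddase gene ADAM9 fell to 79.9% (-0.32, SE 0.06, edgeR adjusted p = 0.000179). The split of this list depended on the scaling, with 8 higher and 1 lower by library totals alone.

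Of 12 genes of VPS10 receptors and retromer sorting, the relatives and partners of SORL1, 9 were tested. Of these, 3 were higher, 2 lower and 4 not called, beside 30.0% higher and 30.1% lower over all tested genes. Their median log2 fold change was -0.07. SORT1, the only tested VPS10 relative of SORL1 in this list, was higher (log2 fold change 0.17, SE 0.07, edgeR adjusted p = 0.0388). With any single library left out, SORT1 lost its call and 2 genes were higher. APP, the best known cargo of SORL1, rose to 125% of control, with 1033 ± 17 CPM in AHR siRNA cells and 829 ± 4.0 CPM in control siRNA cells (SD, n = 3 each, edgeR adjusted p = 0.000316). The adaptor gene GGA1 rose to 134% (log2 fold change 0.43, SE 0.08, edgeR adjusted p = 7.85e-05), while GGA2 fell to 83.4% (-0.26, SE 0.06, edgeR adjusted p = 0.00163), a call that scaling by library totals ended (edgeR adjusted p = 0.131). The retromer subunit gene VPS29 fell to 74.4% (-0.43, SE 0.08, edgeR adjusted p = 0.000232), and the other tested retromer genes VPS26A, VPS26B and VPS35 were not called.

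**Figure D5:**
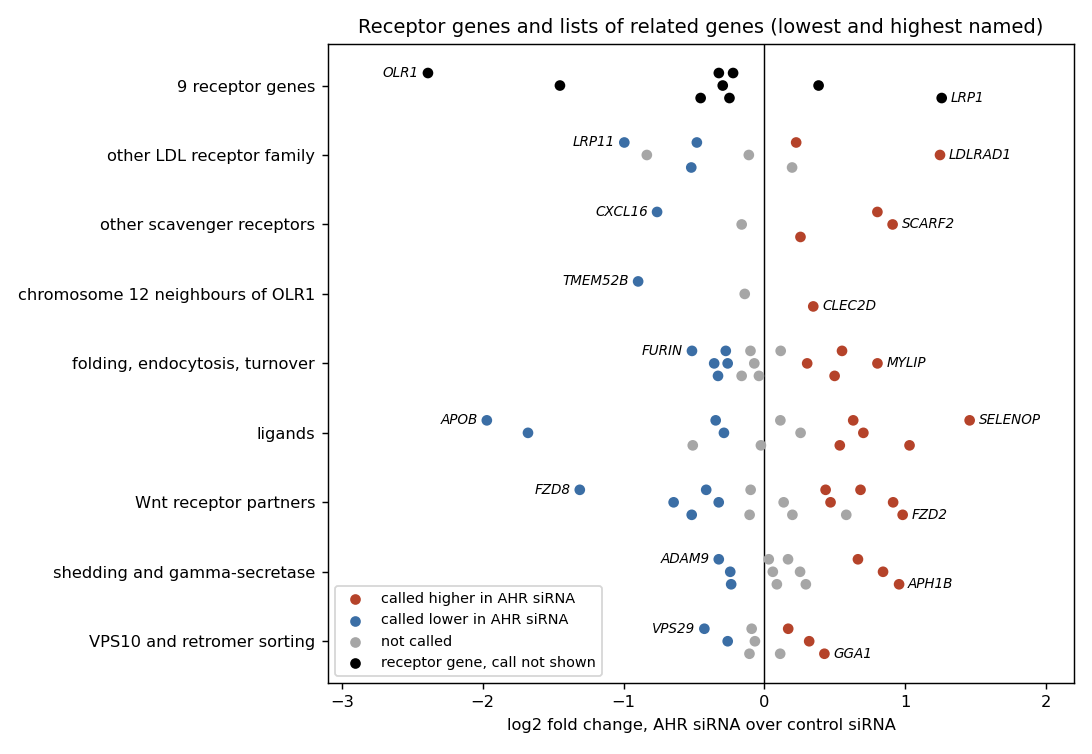
Log2 fold change, AHR siRNA over control siRNA (horizontal axis), of the 9 receptor genes and of the tested genes of 8 related lists (rows). Points are genes, coloured by their call at an edgeR adjusted p under 0.05, with the receptor genes in black and their calls not shown, and the lowest and highest gene of each row named. OLR1 at -2.39 lies below every gene of the related lists, the lowest of which is APOB at -1.97. OLR1 was chosen with its strong difference known, so nothing is read from its place. The APOB value is loose (SE 0.51), from 2 to 10 counts per AHR siRNA library and 10 to 37 per control siRNA library, and its groups overlap.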

How the data were processed

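RNA of 6 DLD-1 libraries was measured, 3 with AHR siRNA and 3 with control siRNA, grouped by sample title. The authors deposited 1 table of raw counts per library, with versioned Ensembl IDs. The builds hg19 and GRCh37 and the tools HTSeq, TopHat and TopHat2 2.0.11 are named, without their roles, per the submitters' processing notes. Strandedness of the counting is not stated, so genes that overlap others may share reads. CPM values were computed here from the deposited counts. The tables hold no coordinates, so positions are from GENCODE 29 (GRCh38), by ID. Of 60483 IDs, 56753 had a symbol in the tables used here, and 30025 had no count in any library.

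Counts were filtered with filterByExpr (14900 genes), scaled by TMM and tested with edgeR 4.0.16 (glmQLFit and glmQLFTest, group as the only term) in R 4.3.3, with Benjamini-Hochberg adjustment over all tested genes. A gene was called at an adjusted p under 0.05. SE is the log2 fold change divided by the square root of F. DESeq2 1.42.0 and limma 3.58.1 (voom) were alternatives, with other scalings, filters, a replicate block and each library left out. The fit was also run on simulated counts in which a far smaller share of genes was changed than the 60.1% called here. That run cannot show how the scaling behaves when so many genes differ. The planned protein features were not used here, and promoter windows are RefSeq's. No 2 libraries of a group agreed within counting noise, as measured by a chi-square per degree of freedom. Control siRNA replicate 1 differed more from replicates 2 and 3 (8.68 and 7.55) than these did from each other (1.54). The pairs of AHR siRNA libraries gave 3.31 to 5.46.

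The 9 genes and the lists of related genes were chosen with earlier results of these data known. In each related list up to 4 called genes with the smallest p were named, and among the genes most like OLR1 the closest 5. Some genes that these rules name are not reported here. Other genes named were chosen after their values were seen.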

Additional observations from a re-analysis of the deposited data

How the results depend on the processing

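Directions of all 9 receptor genes held under every alternative run. With library totals alone the log2 fold changes of OLR1, SCARB1, SCARA3 and LRP5 moved to -2.24, -0.30, -1.30 and -0.15, and with upper-quartile factors those of OLR1 and SCARB1 moved to -2.31 and -0.37, in each case by more than the spread between replicates and towards the shift of the median gene (0.15 and 0.08). The cause of other moves was not tested. The number of receptor genes called lower was 3 with library totals alone and ran from 4 to 6 with 1 library left out. SORL1 lost its call with library totals, with upper-quartile factors and without AHR siRNA replicate 1 or 2 or control siRNA replicate 2 or 3. LRP8 lost it with both scalings and without control siRNA replicate 3, and LRP5 with library totals. VLDLR was called lower without AHR siRNA replicate 1. By library totals, genes called lower numbered 3 among folding and turnover genes, 1 among shedding genes, with 8 higher, and 1 among VPS10 and retromer genes. With upper-quartile factors 6 shedding genes were higher and 1 lower. The 1 higher neighbour of OLR1 was 0 with DESeq2, with no filter, at an adjusted p under 0.01 and with any library left out. With a replicate block, 2 neighbours were lower, TMEM52B and GABARAPL1. Among other LDL receptor genes 1 was higher at an adjusted p under 0.01, and 1 to 2 with a library left out. Folding and turnover genes called lower ran from 3 to 5 with a library left out. SORL1 and LRP6 ranked 7 and 6 per kb of joined exons in control siRNA cells. Over all genes, 5885 were higher and 3205 lower by library totals. Same-numbered libraries deviated together by correlations of 0.19, -0.04 and 0.15, so the numbers were not taken to pair samples, and the block changed no call of a receptor gene. VLDLR had the fewest counts of the 9 genes, 62 to 93 per library, and whether depth sets its call was not tested.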

Other observations

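SSC5D, a scavenger receptor gene below the filter and singled out after its values were seen, had 6, 13 and 20 counts in AHR siRNA replicates 1, 2 and 3 and 1, 2 and 3 counts in control siRNA replicates 1, 2 and 3. The antisense gene AL606760.1, which shares 346 exon bases with LRP8 in GENCODE 29, had 1, 6 and 4 counts in AHR siRNA libraries and 8, 12 and 6 counts in control siRNA libraries. The antisense genes VLDLR-AS1 and LRP1-AS had at most 2 counts in a library.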
